A study of Mus musculus with 7 samples.

Results

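A set of 9 cortical neuropeptide and receptor genes was described across bulk RNA-seq libraries of mouse brain neurons. They were taken by symbol from the count table: 7 peptide precursors (Cck, Sst, Cort, Npy, Vip, Tac1 and Cartpt) and 2 receptors (Cckbr and Npy1r), out of 55367 genes listed. All 9 were among the 17833 genes that passed the filter on low counts and were tested. Per the labels, the RNA was taken from medial prefrontal neurons projecting to the lateral habenula, in C57BL/6J mice at P90. Of the 7 libraries, 4 were labelled CRS and 3 noCRS, in a series whose title concerns a stress-reinforced circuit and depression. The labels give no other treatment, genotype or agent in either group, and do not spell out the abbreviation. The sources used here do not say how the neurons were marked and collected. Nor do they say that each library came from a separate animal, and p-values then describe the spread between these libraries, which may be technical.

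Neuropeptides are made as precursor proteins, packed into dense core vesicles, cut there into active peptides and released during sustained firing, and nearly all act on G protein-coupled receptors. In cortex, Sst, Npy, Vip, Cort and part of the Cck and Tac1 transcripts mark classes of inhibitory interneurons, while Cck is also made by many pyramidal cells. Cckbr and Npy1r are the main cortical receptors for cholecystokinin and neuropeptide Y. Pyramidal neurons are the cells that project out of the cortex.

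Library totals ran from 28677703 to 39965667 counts, and 3 counts in 1 library, the limit used for a count of 0, corresponded to 0.0724 to 0.0990 CPM (TMM-normalised counts scaled to library size). Such limits cover counting error only, since amplified reads are not independent molecules. CRS replicate 2 stood apart on the first principal component, at 235.9 against 45.7 or below in the other 6 libraries. Defining markers did not match a pure neuron sort: Slc17a7, the vesicular glutamate transporter of cortical pyramidal cells, had 25, 0 and 0 counts in noCRS and 447, 217, 321 and 360 in CRS. The 12 excitatory neuron markers summed to 32.8 to 66.8 CPM in noCRS and 541 to 790 CPM in CRS. The 14 pan-neuronal markers summed to 557 to 662 and 3613 to 4852 CPM. The 7 markers of myelinating oligodendrocytes, cells that are not neurons, summed to 32642 to 38023 CPM in noCRS and 26979 to 53265 CPM in CRS, and none had a count of 0 in any library. The 7 markers of oligodendrocyte precursors summed to 2102 to 2414 CPM in noCRS and 1218 to 1680 CPM in CRS. Fold changes were negative in all 7, while 49.2% of all tested genes had a positive one. Of the 7, 3 fell (Cspg4, C1ql1 and Sox10), against 0.23% of all tested genes called as lower. Leaving out 1 library ended the call of C1ql1 (without noCRS replicate 2), of Sox10 (without any but CRS replicates 1 and 2) and of Cspg4 (without any library), with edgeR adjusted p up to 0.052, 0.0918 and 0.156. In bulk RNA, fewer cells of a type and less RNA per cell cannot be told apart, and the part of these shifts in the results below was tested only by rescaling to the pan-neuronal markers.

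A pair of precursors rose in the CRS libraries, Sst, the interneuron peptide somatostatin, and Cck, the cortical peptide cholecystokinin. These were 2 of 9 genes past an adjusted p of 0.05 by edgeR's quasi-likelihood test, against 2.07% of all tested genes called as higher, and 0 of 9 fell, against 0.23% called as lower. Every one of the 9 genes had a positive fold change, as did 49.2% of all tested genes, and their median log2 fold change was 4.09 against -0.02 over all tested genes. At an unadjusted p below 0.05 were 7 of 9 genes, against 9.67% of tested genes higher at that level. In 7 of 9 genes the CRS libraries lay wholly above the noCRS libraries, as in 10.1% of tested genes. These counts lean on the filter: Cort, Vip, Cartpt, Cckbr and Npy1r reached it only with the help of the CRS libraries. Cartpt, with no noCRS count, had to be higher there to be tested. Npy1r had 2 noCRS libraries at the filter's cutoff and Cort, Vip and Cckbr had 1 each. The direction of these genes leaned on the filter but was not fixed by it. Among the 4 genes that passed it with the noCRS libraries alone (Cck, Sst, Npy and Tac1), 2 were called and 3 had groups that did not overlap. By other fits the share of tested genes called as higher was 6.84% (DESeq2, 4 of the 9 genes) and 2.93% (limma-voom, 1 of the 9). With 1 library left out it was 1.09%, 0.725% and 0.899% for noCRS replicates 1, 2 and 3 and 1.04%, 1.79%, 1.02% and 0.963% for CRS replicates 1 to 4. None of the 9 shares exon sequence with another gene of the table.

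**Figure D1:**
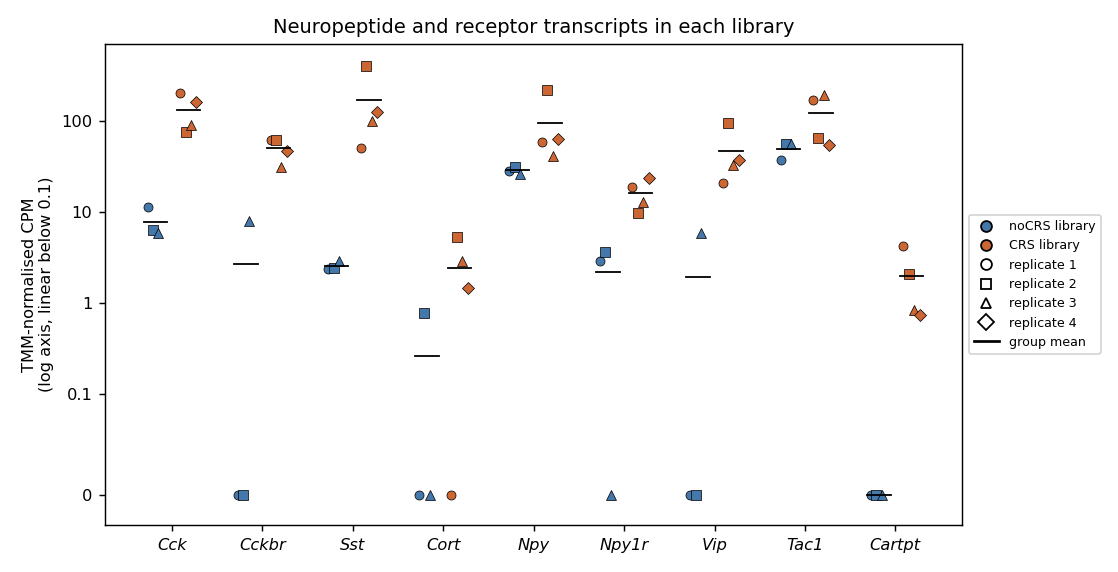
TMM-normalised CPM (log axis, linear below 0.1) of the 9 genes in each of the 7 libraries; colours are the groups, marker shapes the replicate numbers, and black lines the group means. Sst sits between 2.34 and 2.87 CPM in noCRS and between 50.5 and 398 CPM in CRS, while Tac1 and Cort overlap between the groups.

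Sst encodes somatostatin, an inhibitory peptide of dendrite-targeting interneurons (chromosome 16, 23889573 to 23890958, minus strand, GRCm38, 2 exon blocks). It had 97, 75 and 93 counts in noCRS and 1672, 12746, 3008 and 4770 counts in CRS. In CPM the noCRS libraries measured 2.34, 2.41 and 2.87 and the CRS libraries 50.5, 398, 99.3 and 124. The noCRS values lay within 1.22-fold of each other, the CRS values spread over 7.88-fold with replicate 2 highest and replicate 1 lowest, and the groups did not overlap. CRS exceeded noCRS by 6.05 ± 0.80 on the log2 scale (SE; edgeR adjusted p = 0.00928). Without CRS replicate 2 the CRS mean was 91.4 in place of 168 CPM, and the call held (edgeR adjusted p = 0.00303). In edgeR, leaving out noCRS replicate 1 (adjusted p = 0.0543) or 2 (adjusted p = 0.0552) ended the call, as did limma-voom with all libraries (adjusted p = 0.106), while DESeq2 gave an adjusted p of 6.49e-19.

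The promoter of Sst is shown because it holds the palindrome TGACGTCA, the cyclic AMP response element (CRE) to which CREB-family factors bind, first described in this gene. The window runs from 250 bases before to 50 after the RefSeq start (GRCm38.p6, minus strand, chr16:23890795-23891094), written in the direction of transcription with the CRE in capitals.
Sst: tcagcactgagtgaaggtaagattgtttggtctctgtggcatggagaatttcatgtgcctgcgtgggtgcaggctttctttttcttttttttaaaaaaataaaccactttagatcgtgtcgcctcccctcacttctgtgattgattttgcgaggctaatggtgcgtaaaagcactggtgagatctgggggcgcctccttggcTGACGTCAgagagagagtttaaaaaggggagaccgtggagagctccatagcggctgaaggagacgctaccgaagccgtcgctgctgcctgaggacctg
The match lies from base -48 to base -41 before the start. The full element was found in 1.79% of 32851 promoter windows of the same length, searched on both strands, and among the 9 genes in Sst and Cartpt. A match describes the sequence and is not evidence of binding.

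Cort encodes cortistatin, a peptide close to somatostatin that also binds somatostatin receptors (chromosome 4, 149125034 to 149126763). It had 0, 24 and 0 counts in noCRS and 0, 170, 86 and 55 in CRS, which gave 0, 0.77 and 0 CPM against 0, 5.30, 2.84 and 1.43 CPM. Its groups overlapped at 0, since CRS replicate 1 had no count. The test did not pass (3.21 ± 2.46 SE on the log2 scale, edgeR adjusted p = 0.713), and the values of each group depend on replicate 2: without it the noCRS mean was 0 and the CRS mean 1.42 in place of 2.39 CPM. Per length of exon, Sst was 32.8 to 81.4 times the level of Cort in the 3 CRS libraries with any Cort count.

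Cck encodes cholecystokinin (chromosome 9, 121489824 to 121495694, minus strand, 4 exon blocks). It had 464, 195 and 189 counts in noCRS and 6731, 2444, 2691 and 6253 in CRS. The noCRS libraries measured 11.2, 6.26 and 5.82 CPM and the CRS libraries 203, 76.3, 88.8 and 163 CPM. Each CRS library was above every noCRS library, with CRS replicates 1 and 4 highest. CRS exceeded noCRS by 4.09 ± 0.47 on the log2 scale (SE; edgeR adjusted p = 0.00574). The call held when any single library was left out (edgeR adjusted p 0.00678 to 0.0374), by DESeq2 (adjusted p = 9.37e-18) and by limma-voom (adjusted p = 0.022).

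The promoter of Cck is shown beside that of Sst as the other precursor that rose (GRCm38.p6, minus strand, chr9:121495645-121495944), with TGACG, a part of the CRE, here read as its reverse complement CGTCA, in capitals.
Cck: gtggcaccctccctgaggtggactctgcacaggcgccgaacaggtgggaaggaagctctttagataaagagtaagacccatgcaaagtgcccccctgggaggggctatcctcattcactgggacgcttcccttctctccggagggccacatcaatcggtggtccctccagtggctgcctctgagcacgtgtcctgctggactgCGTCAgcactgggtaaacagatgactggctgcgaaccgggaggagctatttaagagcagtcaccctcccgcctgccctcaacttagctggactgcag
This match lies from base -47 to base -43, within the span that the full element takes in Sst. On either strand, TGACG or CGTCA was found in 20.8% of windows and in 6 of the 9 genes (Cck, Sst, Cort, Vip, Tac1 and Cartpt), and every full element contains it. The AP-1 motif TGANTCA, the site of Fos and Jun, was found in 7.81% of windows and among the 9 only in Npy1r. No window of the 9 held AAAGGTCA (1.51% of windows), which Nr4a factors bind, or the Egr site GCGTGGGCG (0.612% of windows).

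Cckbr is the cholecystokinin receptor of brain (chromosome 7, 105425731 to 105470898, plus strand). It had 0, 0 and 259 counts in noCRS and 2043, 1977, 937 and 1788 in CRS. These were 0, 0 and 7.98 CPM against 61.7, 61.7, 30.9 and 46.6 CPM, with no overlap. The CRS libraries agreed more closely for Cckbr than for any other of the 9 genes, with a coefficient of variation of 29.3% against 37.8% to 94.4%. All of its noCRS counts stood in replicate 3, and the test over all libraries did not pass (4.24 ± 1.77 SE on the log2 scale, edgeR adjusted p = 0.337). Without noCRS replicate 3 the noCRS mean was 0 and edgeR gave an adjusted p of 0.00612. Such zeros were common: 26.7% of tested genes lacked counts in 1 or more libraries.

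Npy encodes neuropeptide Y, an inhibitory peptide of interneurons (chromosome 6, 49822710 to 49829507, plus strand). It had 1165, 966 and 854 counts in noCRS and 1919, 6985, 1255 and 2418 in CRS. In CPM these were 28.1, 31.0 and 26.3 against 57.9, 218, 41.4 and 63.0. The groups did not overlap, but CRS replicate 2 stood far above the other CRS libraries, and without it the CRS mean was 54.1 in place of 95.1 CPM. Npy did not pass edgeR (log2 fold change 1.74 ± 0.57 SE, adjusted p = 0.197; 0.91 and adjusted p = 0.148 without CRS replicate 2), and DESeq2 gave an adjusted p of 0.0351.

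Npy1r, the Y1 receptor for neuropeptide Y (chromosome 8, 66697192 to 66706792, plus strand), had 118, 112 and 0 counts in noCRS and 612, 309, 387 and 894 in CRS. The levels were 2.85, 3.60 and 0 CPM against 18.5, 9.64, 12.8 and 23.3 CPM. The lowest CRS library lay above the highest noCRS library, and CRS replicate 2, highest for Npy, was lowest for its receptor. The difference did not pass (2.90 ± 1.36 SE on the log2 scale, edgeR adjusted p = 0.414), and the noCRS mean was 1.42 in place of 2.15 CPM without noCRS replicate 2.

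Vip encodes vasoactive intestinal peptide, the marker of interneurons that inhibit other interneurons (chromosome 10, 5639218 to 5647617, plus strand). Its counts were 0, 0 and 188 in noCRS and 688, 3032, 994 and 1440 in CRS, or 0, 0 and 5.79 CPM against 20.8, 94.6, 32.8 and 37.5 CPM. As with Cckbr, noCRS replicate 3 was the only noCRS library with any count, and CRS replicate 2 was again the highest. The test did not pass (log2 fold change 4.59 ± 1.82 SE, edgeR adjusted p = 0.30). Without noCRS replicate 3 the noCRS mean was 0 and edgeR gave an adjusted p of 0.0217, and without CRS replicate 2 the CRS mean was 30.4 in place of 46.4 CPM.

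Tac1 encodes the precursor of substance P and neurokinin A, excitatory tachykinins found in a class of interneurons and strongly in striatum and medial habenula (chromosome 6, 7554879 to 7565834, plus strand). It had 1545, 1711 and 1805 counts in noCRS and 5634, 2093, 5833 and 2076 in CRS. The noCRS libraries measured 37.3, 54.9 and 55.6 CPM and the CRS libraries 170, 65.3, 193 and 54.1 CPM. CRS replicates 1 and 3 stood above every noCRS library, replicate 4 lay within the noCRS range, and the test did not pass (1.29 ± 0.48 SE on the log2 scale, edgeR adjusted p = 0.25). Markers of striatum, thalamus and habenula were mixed. Of 13 such genes 7 were tested, and Slc17a6, a vesicular glutamate transporter of thalamus and habenula, rose from no count in noCRS to 12.5 ± 6.15 CPM (edgeR adjusted p = 0.0117). The striatal genes Ppp1r1b (18.6 ± 5.10 and 36.0 ± 8.08 CPM, adjusted p = 0.224) and Drd1 (no noCRS count and 8.05 ± 10.1 CPM in CRS, adjusted p = 0.172) did not pass. Slc17a6 and Drd1 were tested only through the CRS libraries and had to be higher there. Others (Drd2, Adora2a, Gpr151, Pou4f1 and Chat) had no noCRS count and at most 0.57 CPM on average in CRS. All 13 summed to 129 to 200 CPM in noCRS and 163 to 221 CPM in CRS, and their part in the Tac1 values was not tested.

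Cartpt encodes the cocaine- and amphetamine-regulated transcript peptide (chromosome 13, 99898489 to 99901091, minus strand). It had no count in any noCRS library and 140, 66, 25 and 28 counts in CRS, or 4.23, 2.06, 0.83 and 0.73 CPM. The CRS mean of 1.96 CPM was at least 68.7-fold higher than the limit that 3 counts over the noCRS group allow, 0.0286 CPM. Without CRS replicate 1 the mean was 1.20 CPM, at least 42.2-fold above that limit. Cartpt did not pass edgeR (adjusted p = 0.0754) or limma-voom (adjusted p = 0.0688) and passed DESeq2 (adjusted p = 0.000102). Its promoter window is shown as the other of the 9 with a full CRE (GRCm38.p6, minus strand, chr13:99900634-99900933, CRE in capitals, base -112 to base -105).
Cartpt: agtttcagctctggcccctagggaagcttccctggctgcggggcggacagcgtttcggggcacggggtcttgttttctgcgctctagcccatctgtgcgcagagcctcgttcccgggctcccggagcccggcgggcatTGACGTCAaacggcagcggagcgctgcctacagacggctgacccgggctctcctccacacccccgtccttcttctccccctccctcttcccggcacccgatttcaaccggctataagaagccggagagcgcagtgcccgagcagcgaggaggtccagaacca

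Levels of different genes were compared as CPM per kilobase of exon. In noCRS the order was Npy at 50.3 ± 4.20, Tac1 at 14.5 ± 3.06, Cck at 5.95 ± 2.28 and Sst at 3.52 ± 0.40 (SD, n = 3), each apart from the next in every library. Cckbr, Npy1r, Vip, Cort and Cartpt followed at 0.93 CPM per kilobase or below, with ranges that overlapped from one to the next. In CRS the order began with Sst at 233 ± 217, Npy at 168 ± 146 and Cck at 102 ± 46.4 (SD, n = 4), whose ranges overlapped. Tac1 came next at 35.5 ± 20.9, below Cck in every library, and then Cckbr at 17.5 ± 5.14, Vip at 13.6 ± 9.66, Npy1r at 4.65 ± 1.75, Cort at 3.54 ± 3.34 and Cartpt at 1.54 ± 1.28, again with overlapping neighbours.

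The shares that the 7 precursors took of their summed level were set apart between the groups for Npy, Sst and Cartpt and overlapped for Cck, Tac1, Vip and Cort. The summed level was 72.4, 80.2 and 73.0 CPM per kilobase in noCRS and 388, 1051.5, 350.2 and 438 in CRS. Npy made up 63.7% to 68.5% of that sum in noCRS and 20.9% to 36.6% in CRS. Sst made up 4.16% to 5.44% and 18.1% to 52.5%. Neither range overlapped. Cck was 5.98% to 11.8% in noCRS and 19.4% to 40.2% in CRS replicates 1, 3 and 4, but 5.56% in CRS replicate 2. Per length, Sst was 0.0609 to 0.0855 times the level of Npy in noCRS and 0.68 to 1.88 times in CRS. These shares describe the libraries and were not tested.

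**Figure D2:**
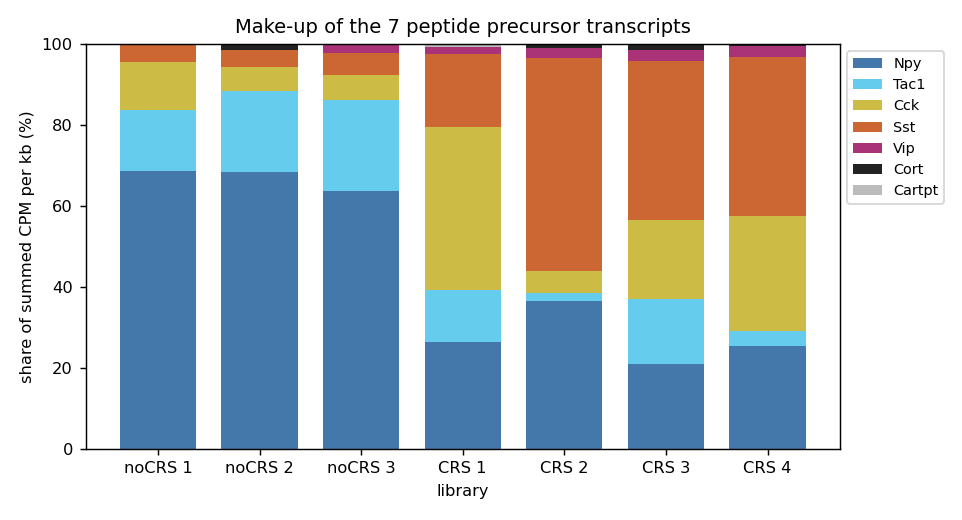
Stacked bars give the share of the summed CPM per kilobase of the 7 precursors (percent) in each library. Npy holds 63.7% to 68.5% of the bar in noCRS and 20.9% to 36.6% in CRS, where Sst holds 18.1% to 52.5%.

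The 4 CRS libraries did not rank alike for the 9 genes. CRS replicate 2 was highest for Sst, Cort, Npy and Vip, at 2.37, 2.22, 2.29 and 2.04 times the CRS mean, and lowest for Cck and Npy1r, at 0.57 and 0.60 times. CRS replicate 1 was highest for Cck, Cckbr and Cartpt and lowest for Sst, Cort and Vip. Tac1 was highest in replicate 3 and Npy1r in replicate 4. Gad1, which makes GABA and marks inhibitory neurons, followed the first pattern, with 162 CPM in CRS replicate 2 and 72.5 to 77.8 CPM in the other 3. Its noCRS libraries measured 22.8 to 30.3 CPM, and Gad1 rose (edgeR adjusted p = 0.0299), a call that ended when any library but CRS replicate 2 was left out (adjusted p up to 0.136).

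**Figure D3:**
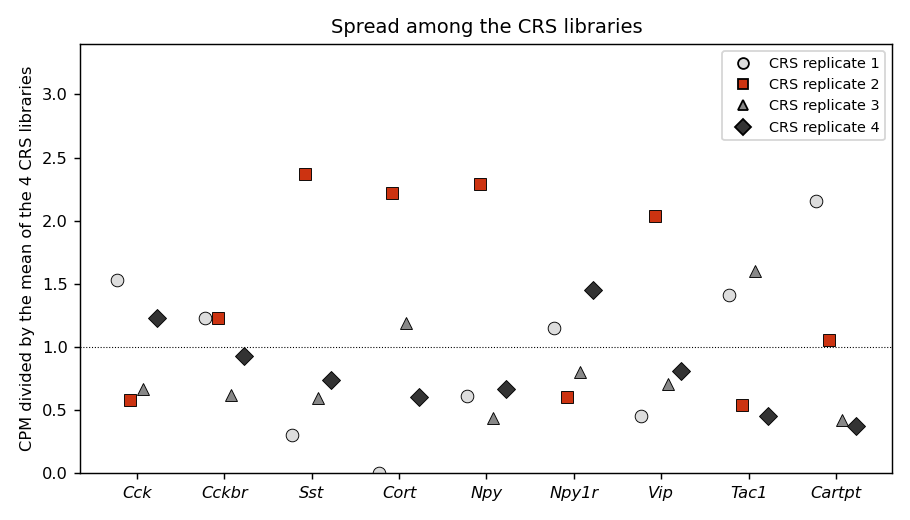
Each point is the CPM of 1 CRS library divided by the mean of the 4 CRS libraries, by gene; the dotted line marks the mean. CRS replicate 2 (red squares) lies at 2.04 to 2.37 for Sst, Cort, Npy and Vip and at 0.54 to 0.60 for Cck, Npy1r and Tac1.

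Most other interneuron markers were not called. Gad2, the other GABA-making enzyme, measured 0, 3.95 and 6.01 CPM in noCRS and 1.09, 2.12, 9.54 and 24.0 CPM in CRS (edgeR adjusted p = 0.844). Slc32a1, the vesicular GABA transporter, had no count in noCRS and a mean of 0.059 CPM in CRS. Lhx6, a factor of Sst and Pvalb interneurons, had counts in 1 library alone, CRS replicate 2, at 14.4 CPM. Of 23 interneuron markers, 20 were tested, 1 rose (Gad1) and 1 fell, against 2.07% and 0.23% of all tested genes. The median log2 fold change of the 20 was 0.49. Their summed level was 933 to 1155 CPM in noCRS and 583 to 863 CPM in CRS. The part of interneuron RNA in the peptide values was not tested.

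Scaled to the 14 pan-neuronal markers in place of TMM, the 9 genes split. Over all genes, this scaling shifted the median fold change by -2.81 (log2), called 0.981% of tested genes as higher and 68.2% as lower, and rests largely on Snap25, which held 18.3% to 32.8% of the summed marker counts in noCRS and 56.0% to 72.2% in CRS. On it Cck (log2 fold change 1.28 ± 0.46 SE, edgeR adjusted p = 0.0339), Sst (3.17 ± 0.69, adjusted p = 0.00313) and Cartpt (adjusted p = 0.0176) were higher relative to the neuronal markers. Cartpt had no noCRS count, so it could only be higher in CRS under any scaling. Tac1 was lower (-1.46 ± 0.54, adjusted p = 0.0391), with 56.3 to 98.6 counts per 1000 marker counts in noCRS and 11.3 to 53.3 in CRS. Npy was at -1.16 ± 0.51 (adjusted p = 0.0697) and Npy1r at 0.02 ± 1.41 (adjusted p = 0.987). Cckbr (1.45 ± 1.78), Vip (1.79 ± 1.83) and Cort (0.25 ± 2.23) did not pass.

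With Snap25 left out of the marker list, an alternative added after seeing the data, the median of all genes moved by -1.82, with 1.36% of tested genes called as higher and 49.1% as lower. Cck (2.18 ± 0.41, edgeR adjusted p = 0.00246) and Sst (4.37 ± 0.84, adjusted p = 0.00296) again passed. So did Cartpt (adjusted p = 0.0145), whose direction was fixed by its lack of noCRS counts. Tac1 was then at -0.54 ± 0.46 (adjusted p = 0.332) and Npy at 0.04 ± 0.64 (adjusted p = 0.963). The sign of Tac1 and Npy differed between scalings, while Cck and Sst were higher under TMM and both of these. Relative to the median of all genes, Npy lay at 1.66 and 1.88 (log2) with and without Snap25 in the list. Tac1 lay at 1.37 and 1.30. Rescaling moves all genes by a similar amount, so these values had to lie near those under TMM (1.74 and 1.29). They cannot show why the sign changed, which was not tested.

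**Figure D4:**
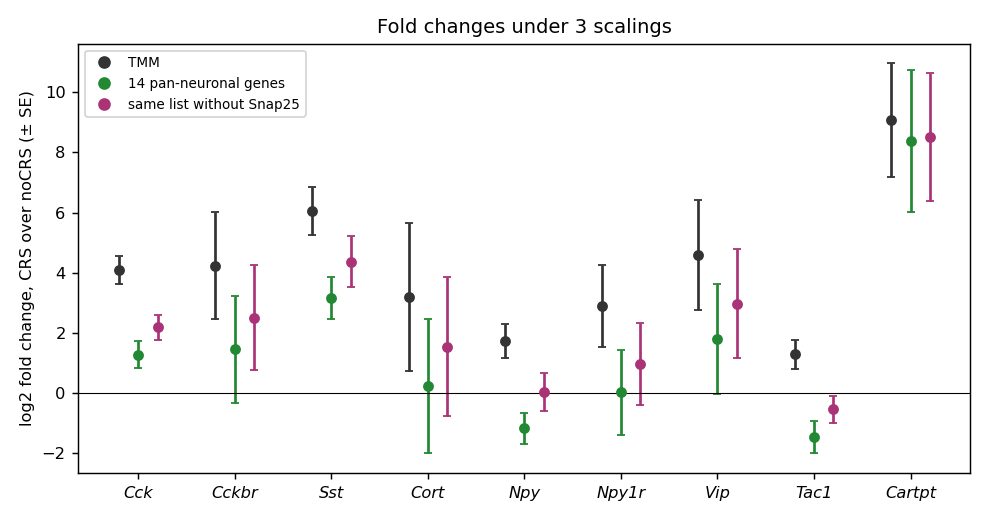
Points give log2 fold changes of CRS over noCRS with SE bars from edgeR, for TMM scaling and for libraries scaled to the pan-neuronal markers with and without Snap25. Cck and Sst lie above 0 under all 3 scalings and Tac1 lies below 0 under both marker scalings; the position of Cartpt, with no noCRS count, depends on the prior count.

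The partner ligands and receptors of these families were mostly without counts in noCRS. Of 21 genes (cholecystokinin A, somatostatin, Y, VIP and tachykinin receptors, the ghrelin receptor, the receptor Gpr160, and the related peptides Gast, Pyy, Tac2 and Tac4), 18 had no count in noCRS, 9 had none in any library and 4 were tested. edgeR called 0 of the 4, against 2.3% of all tested genes called in either direction. Of the 4, 1 was at an unadjusted p below 0.05 (Npy2r), against 13.6% of all tested genes. Npy2r and Sstr2 passed the low-count filter only through the CRS libraries. Sstr2, the somatostatin receptor most common in cortex, had 0, 128 and 0 counts in noCRS and 1655, 557, 135 and 747 in CRS (adjusted p = 0.429). Its lowest CRS library, at 4.46 CPM, lay just above its highest noCRS library, at 4.11 CPM. Sstr1 measured 4.74 ± 3.57 and 7.64 ± 2.64 CPM (adjusted p = 0.839), and Npy2r, the presynaptic Y2 receptor, had no noCRS count and 6.86 ± 6.11 CPM in CRS (adjusted p = 0.164). Vipr2, a VIP and PACAP receptor, stood at 25.5 ± 12.1 CPM in noCRS (n = 3) against 16.3 ± 14.8 CPM in CRS (n = 4; SD) (edgeR adjusted p = 0.917). The tachykinin receptors Tacr1 and Tacr2 had counts in 1 CRS library each and Tacr3 in none.

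Of 11 other cortical peptide precursors, 10 were tested, 1 rose and 0 fell, against 2.07% and 0.23% of all tested genes. Adcyap1, Pdyn, Pnoc and Nts had no noCRS count, so they were tested only through the CRS libraries and had to be higher there. Penk, Crh, Trh and Grp lacked counts in 1 or 2 noCRS libraries each and also reached the filter only with the CRS libraries. Nmb and Rln1 passed it with the noCRS libraries alone, and their log2 fold changes were negative (-0.73 and -1.54, neither called). The riser was Adcyap1, the PACAP precursor, with no noCRS count and 30.0, 15.7, 5.51 and 7.35 CPM in CRS (edgeR adjusted p = 0.0176). Leaving out noCRS replicate 2 or CRS replicate 1 ended that call (adjusted p up to 0.053), and the CRS mean was 9.53 CPM without CRS replicate 1. Penk, the enkephalin precursor, measured 1.63 ± 1.41 and 28.7 ± 18.3 CPM (adjusted p = 0.189), and Pnoc, the nociceptin precursor, had no noCRS count and 2.21 ± 1.31 CPM in CRS (adjusted p = 0.0625). Both had groups that did not overlap.

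Of 17 other cortical peptide receptors, 8 were tested and edgeR called 0, against 2.3% of all tested genes called in either direction. At an unadjusted p below 0.05 were 4 of the 8, against 13.6% of all tested genes in either direction. Fold changes were positive in 4 of the 8, among them the relaxin receptor Rxfp1 (0.10 ± 0.18 and 23.3 ± 18.3 CPM, adjusted p = 0.182). These 4 (Crhr1, Trhr, Rxfp1 and Nmbr) lacked counts in 1 or 2 noCRS libraries each. They reached the low-count filter only with the CRS libraries, so their direction leans on the filter. In the other 4, the CRS libraries lay wholly below the noCRS libraries, as in 6.74% of all tested genes: Ntsr2, an astrocyte neurotensin receptor (504 ± 164 and 243 ± 96.6 CPM, adjusted p = 0.178), the PACAP receptor Adcyap1r1 (81.0 ± 9.13 and 43.0 ± 16.3 CPM, adjusted p = 0.207), the nociceptin receptor Oprl1 (78.0 ± 10.7 and 36.0 ± 18.8 CPM, adjusted p = 0.313) and the parathyroid hormone receptor Pth1r (16.1 ± 3.29 and 5.45 ± 4.05 CPM, adjusted p = 0.38). These stood beside astrocyte markers that summed to 10927 to 14186 CPM in noCRS and 6463 to 13040 CPM in CRS. The part of the astrocyte markers in these receptor values was not tested.

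Of 13 genes that package and cut peptide precursors, all tested, 2 rose and 0 fell, against 2.07% and 0.23% of all tested genes. Fold changes were positive in 11 of them and their median was 1.32 (log2). Among these, Vgf, Pcsk1 and Cadps2 reached the low-count filter only with the CRS libraries. Scg2, a granin that helps form dense core vesicles, measured 17.2 to 21.5 CPM in noCRS and 130 to 169 CPM in CRS (log2 fold change 2.91, edgeR adjusted p = 0.000685). Pcsk2, a convertase that cuts many neuropeptide precursors, measured 41.7 to 62.4 CPM and 145 to 213 CPM (1.82, adjusted p = 0.00871; 0.0501 without noCRS replicate 2). Pcsk1, the other neuronal convertase, measured 3.38 ± 3.28 and 21.1 ± 8.38 CPM (adjusted p = 0.49). The carboxypeptidase Cpe, which trims the cut peptides, measured 3472.5 ± 147 and 4135.5 ± 930 CPM (adjusted p = 0.691).

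Activity-induced genes, several of them known targets of CREB, included 4 of 10 that rose and 0 that fell, against 2.07% and 0.23% of all tested genes. Their median log2 fold change was 1.71, with Npas4 tested only through the CRS libraries. These were Fos, Nr4a2, Nr4a3 and Crem. Fos measured 2881, 3261 and 3529 CPM in noCRS and 12756, 5302, 12592 and 10473 CPM in CRS, lowest among the CRS libraries in replicate 2, where Sst, Npy, Vip and Cort were highest. The Fos call (edgeR adjusted p = 0.0302) ended when any library but CRS replicate 2 was left out (adjusted p up to 0.136), and that of Crem without noCRS replicate 2 (adjusted p = 0.0544). Nr4a3 rose from 4.74 to 61.8 CPM and Nr4a2 by 2.81 on the log2 scale (adjusted p = 0.00547 and 0.00641).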

How the data were processed

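The authors deposited whole-number raw counts of 55367 genes in 7 libraries. GRCm38, featureCounts, DESeq2, HISAT, HISAT2 and FastQC are named, per the submitters' processing notes; the column names end as those of another aligner, STAR, so the aligner was not settled. Strand and multiple-alignment settings are not given in the sources used here. Libraries were made with a transposase kit, per the labels' protocols.

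The groups were compared by the quasi-likelihood test of edgeR 4.0.16 (R 4.3.3) after TMM scaling and its default low-count filter, without covariates. P-values of 17833 genes were adjusted together (Benjamini-Hochberg), and 0.05 was the threshold. The SE of a fold change was taken from the quasi-likelihood F statistic. The script was checked on simulated data. No pair of libraries was a duplicate (chi-square per gene at least 93.6). Alternatives were DESeq2 1.42.0, limma-voom (limma 3.58.1) with quality weights, other scalings and filters, a threshold of 0.1, a replicate block and each library left out. The table's bounds of all 9 genes equalled those of GENCODE M21. Promoter windows came from RefSeq (GRCm38.p6), and all 9 genes matched by symbol.

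The 9 genes and the gene lists were chosen with earlier results of these data known. Named were the 9 genes, called members of the lists and a few reference genes; other list members were named after their values were seen. For each called gene, the 3 tested genes of most similar profile were also named. Some members of the marker lists are not reported here by name.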

Additional observations from a re-analysis of the deposited data

Results flagged for a closer look

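Among the 9 genes, 1 library stood far from the rest of its group: Npy in CRS replicate 2 measured 218 CPM, while the other 3 CRS libraries measured 41.4 to 63.0 CPM. The gap to the nearest library took up 0.878 of the group's whole range, above Dixon's critical value for 4 libraries. For Sst and Vip the same library was also highest, with gaps of 0.787 and 0.773 of the range, below that value. Chance alone marks about 5% of groups, and 9 groups were examined.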

How the results depend on the processing

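The count of called genes over the whole table was 410. It was 1631 by DESeq2, 639 by limma-voom, 714 at an adjusted p of 0.1, and 142 to 352 when 1 library was left out. Scaled to the pan-neuronal markers it was 12332, and 9006 without Snap25. Higher genes made up 90% of calls with TMM, 79.5% with total counts alone, 74.9% by DESeq2, and 1.42% and 2.69% under the marker scalings. Of the 9 genes, 2 were called. The count was 4 by DESeq2 (Cck, Sst, Npy and Cartpt), 1 by limma-voom (Cck) and 1 to 4 when a library was left out. The highest of these, 4, came without noCRS replicate 3 (Vip and Cckbr added). Under the marker scaling with Snap25 the count was 4, with Cck, Sst and Cartpt higher and Tac1 lower. Without Snap25 the count was 3 (Cck, Sst and Cartpt, all higher). The log2 fold change turned negative for Npy (-1.16) and Tac1 (-1.46; -0.54 without Snap25) under the marker scalings, which shift the median of all genes by -2.81 and -1.82. The cause of any of these changes was not tested. Under the other 16 alternatives all 9 genes kept positive fold changes, and Cck stayed called (adjusted p up to 0.0435). Same-numbered replicates share only a number: the correlations of their deviations from the group means were 0.015, -0.003 and 0.023. With the replicate number as a block, 12 genes of the table were called and 1 of the 9 (Cck; Sst had an adjusted p of 0.102). Low counts limit Cort (24 in noCRS, 311 in CRS) and Cartpt (0 and 259).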

Other observations

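The genes whose profiles over the 7 libraries were most like those of the 2 called precursors were found by the root mean square difference of centred log2 CPM, as a description with no test. For Cck they were Syt5, a synaptotagmin of secretory vesicles, at 0.32 (12.6 ± 4.83 CPM in noCRS and 148 ± 45.1 CPM in CRS), Mm2pr at 0.36, which had 4 counts in noCRS, and Grin2b, an NMDA receptor subunit, at 0.36 (2.01 ± 0.68 and 36.2 ± 8.99 CPM). Syt5 and Grin2b rose (edgeR adjusted p = 0.0039 and 0.00492), and both calls held when any single library was left out. For Sst they were Dpp4, a peptidase, at 0.35, Tnnt2 at 0.44 and Myocos at 0.46. These had no count in noCRS and 3.09 ± 2.67, 5.22 ± 3.45 and 2.25 ± 2.46 CPM in CRS. Tnnt2 passed the test (edgeR adjusted p = 0.0433), a call lost without any single library (adjusted p up to 0.129).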
